A study of Mus musculus with 9 samples.

Results

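The proteasome genes of 3 mouse cell lines were examined on 9 Illumina bead arrays, 3 for each line. The members were all probes whose gene symbol begins with Psma, Psmb, Psmc, Psmd or Psme and a number, with the inducible core subunits Psmb8, Psmb9 and Psmb10 left out. They comprised 75 probes of 42 genes, out of 45281 probes and 19057 named genes on the array. The symbol rule also took in Psmc3ip and Psme3ip1, which are named after partners of proteasome genes and are not subunits. END2 cells are endoderm-like cells that the labels assign to the strain p19 and call an embryonal carcinoma line, PYS2 cells are tumor cells of strain 129, and XEN cells were grown out of blastocysts of the ICR strain. The labels name no treatment and no changed allele. Each group is a single established line, END2 was kept in another culture medium than PYS2 and XEN, and line, strain and medium cannot be told apart. END2 and PYS2 descend from carcinoma or tumor cells, so they are models of endoderm rather than embryonic tissue. The labels do not state whether the 3 RNA samples of a line were taken from separate cultures, and p-values refer to the spread between these samples only.

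The proteasome is the large protease that takes apart proteins tagged with ubiquitin. Its core is a barrel of alpha rings, which form the gate, and beta rings, which hold the cutting sites. A regulatory particle sits on the end of the barrel: its base contains a ring of ATPases that unfold the substrate and push it inwards, and its lid contains the enzyme that takes the ubiquitin chain off. Other caps, the activators encoded by the Psme genes, can take the place of the regulatory particle, and the pair Psme1 and Psme2 is known for its induction by interferon gamma. The standard subunits are known to be made in nearly all cells and to join in fixed proportions.

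Levels are given as log2 signals after background correction and quantile normalization. A probe was called detected at a detection p-value under 0.01 and was tested when it was detected on at least 2 arrays of 1 line or more. Of the members, 59 probes of 36 genes were tested, within 16299 probes of 9354 genes. Each gene was represented by its tested probe with the highest mean level, called the chosen probe, and a gene is said to pass or not by that probe unless another is named. Psma1, Psma3 and Psma6 of the alpha ring, Psmd3 of the lid, the testis form Psma8 and the thymus form Psmb11 were not tested. None of their probes reached detection on any of the 9 arrays, so no level was measured for them. The first 4 of these encode parts of every standard particle. A probe undetected on all arrays sets no bound on the RNA of its gene. Such probes of Psma5, Psmb2, Psmb3 and Psmd8 lay beside detected probes for the same transcript. The number of arrays limits the precision of all values. The median signal per array ran from 21.3 to 43.5 and the detected probes from 13051 to 14940. XEN replicate 2 had the highest median signal, with 21.3 and 24 in XEN replicates 1 and 3. END2 replicate 3 stood apart from the other END2 arrays: its distances to them over all tested probes were 72.1 and 78.5, against 35.0 between those arrays and 46.2 to 61.0 within the other lines. As a check of the labels, all 6 extra-embryonic endoderm markers were detected in PYS2 and XEN. In END2 Sox7 and Sox17 were not well above background, while Gata4, Gata6, Pdgfra and Dab2 were detected. By the test, 5 of the 6 were lower in END2 than PYS2, Gata6 being higher, and 6 were lower than XEN. Gata4 had means of 6.21, 8.93 and 9.13 in END2, PYS2 and XEN. The paper on these arrays reports that by qRT-PCR END2 expressed Gata6 but not Sox7, Pdgfra or Gata4. END2 alone had 4 of 5 fibroblast genes detected (Col1a1, Col1a2, Col3a1, Thy1), with a summed signal of 2207.7 to 2736.3 against 69.6 to 122.1 in the other lines, and its part in the END2 differences below was not tested. Of 5 markers of undifferentiated cells Nanog was detected in END2 alone and Utf1 in XEN alone, Sox2 reached detection on 1 XEN array, and Pou5f1 and Zfp42 on none. In these bulk samples, fewer cells of a type and less RNA per cell cannot be told apart.

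Most proteasome genes differed little between the lines, and a small number differed strongly. The line means of 20 of the 36 genes lay within 0.5 on the log2 scale of each other (55.6%, against 23.3% of all genes tested), and 17 genes passed the test in no comparison (47.2%, against 25.7%). In END2 against PYS2, 8 of 36 genes were higher in END2 (22.2%, against 26.4% of all genes tested) and 7 were lower (19.4%, against 28.8%). In END2 against XEN, 5 were higher in END2 (13.9%, against 27.5%) and 4 lower (11.1%, against 26.7%). In PYS2 against XEN, 3 were higher in PYS2 (8.33%, against 21.2%) and 6 lower (16.7%, against 18.4%). All 6 shares were under those of the array as a whole, the last by a small margin. The higher counts of both END2 comparisons include Psmd11 by its chosen probe, although its other tested probe gave the opposite call. Psmc3ip, which is not a subunit, is also counted. Without Psmc3ip and Psme3ip1, 7 genes were higher in END2 than PYS2 and 5 were lower in PYS2 than XEN. The other counts stayed the same. These calls are from limma at a Benjamini-Hochberg adjusted p under 0.05 over all 16299 probes.

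The differences were also smaller in size. The median absolute log2 difference of the proteasome genes was 0.35 in END2 against PYS2, where it was 0.61 over all genes tested. It was 0.28 against 0.60 in END2 against XEN, and 0.24 against 0.43 in PYS2 against XEN. A difference over 1 on the log2 scale was measured for 4, 3 and 2 proteasome genes in these comparisons (11.1%, 8.33% and 5.56%), compared with 32.4%, 31.7% and 19.7% of all genes. The signed medians of the proteasome genes were 0.10 for END2 minus PYS2, 0.12 for END2 minus XEN and -0.14 for PYS2 minus XEN, and those of all genes were -0.03, -0.02 and 0.02. END2 had the highest of the line means for 18 genes, XEN for 11 and PYS2 for 7. These counts take in genes that passed no test, such as Psmb2 with line means within 0.16, and were not made for all genes. No set test was made on the medians or on these counts. Of the 33 called differences, 33 remained called without END2 replicate 3, and 11 more were gained, so that the genes higher in END2 than XEN went from 5 to 9 and those higher in PYS2 than XEN from 3 to 5. Without PYS2 replicate 2 the genes lower in END2 than PYS2 went from 7 to 4, and without END2 replicate 1 or 2 or XEN replicate 1 or 3 those higher in END2 than XEN went to 3. Without normalization between arrays 11 of the 33 remained.

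**Figure D1:**
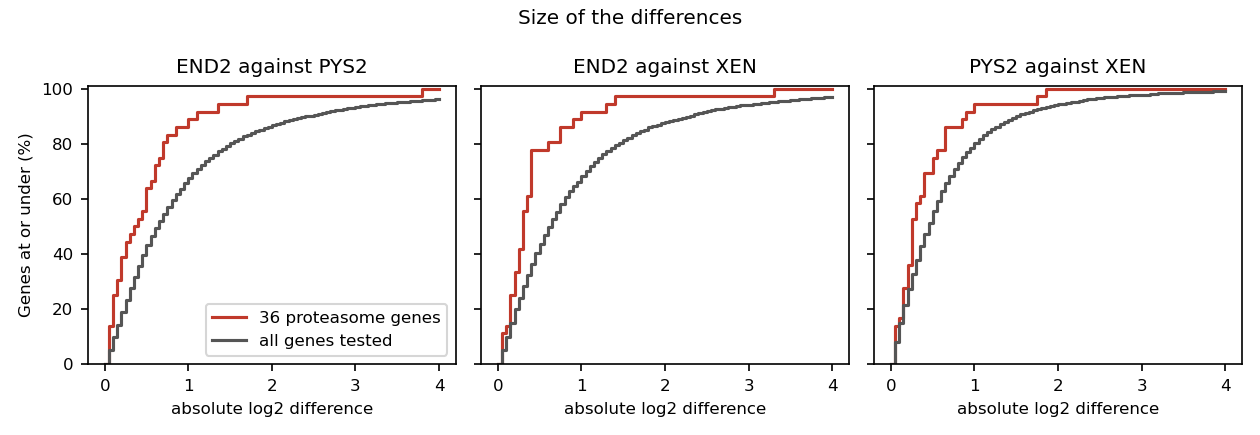
Share of genes (vertical axis, percent) whose absolute log2 difference is at or under the value on the horizontal axis, for the 36 proteasome genes (red) and all 9354 genes tested (grey), 1 panel for each pair of lines. The red line lies to the left of the grey: at a difference of 1, 88.9%, 91.7% and 94.4% of the proteasome genes are reached, against 67.6%, 68.3% and 80.3% of all genes.

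**Figure D2:**
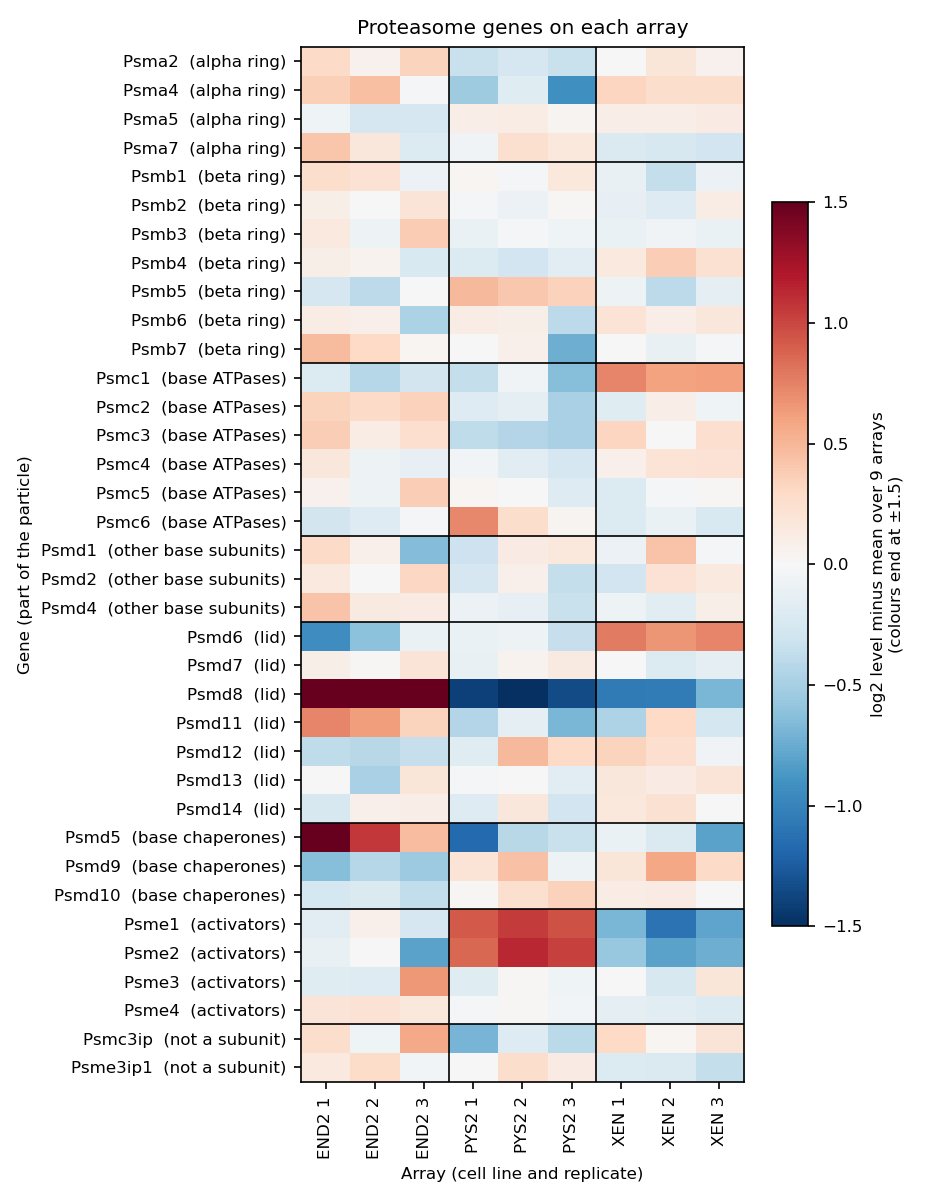
Log2 level of each of the 36 tested proteasome genes (rows, grouped by part of the particle) on each of the 9 arrays (columns), minus the mean of the gene over all arrays; red is above and blue below, and colours end at ±1.5. Most rows are pale, and Psmd8, Psmd5, Psme1, Psme2, Psmd6 and Psmc1 are the rows in which the arrays of a line share a strong colour.

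The activators held the clearest difference between PYS2 and the other lines. Psme1 and Psme2 encode the alpha and beta subunits of the ring-shaped PA28 cap. Psme1 was at 11.16, 11.41 and 11.08 in END2, at 12.25, 12.38 and 12.29 in PYS2, and at 10.64, 10.22 and 10.55 in XEN. No array of any line overlapped those of another, with PYS2 at the top, END2 between and XEN at the bottom. The level was 3.58-fold above XEN in PYS2 (SE 0.17 on the log2 scale, adjusted p = 7.69e-06), 2.13-fold above END2 in PYS2 (adjusted p = 0.000218) and 1.68-fold above XEN in END2 (adjusted p = 0.00315). The other Psme1 probe gave the same order with differences of 2.06 (PYS2 minus XEN), -1.14 (END2 minus PYS2) and 0.92 (END2 minus XEN), and each of them passed the test.

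Psme2 was at 8.69, 8.80 and 8.0 in END2, at 9.66, 9.93 and 9.82 in PYS2, and at 8.23, 8.0 and 8.07 in XEN. The 3 PYS2 arrays lay above all others, and the END2 and XEN arrays overlapped. It was 3.26-fold above XEN in PYS2 (SE 0.21 on the log2 scale, adjusted p = 7.95e-05) and 2.48-fold above END2 (adjusted p = 0.000295). END2 and XEN differed by 0.40 (95% interval -0.07 to 0.86), which did not pass. The mouse genome holds a near-identical copy, Psme2b, whose RNA the probe could also read, so the value of Psme2 is uncertain to that extent. The PYS2 differences of Psme1 and Psme2 were among the 10 called differences that held under all alternatives tried.

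For the other caps the differences were smaller. Psme3, which encodes the nuclear PA28 gamma ring, was at 10.69, 10.68 and 11.52 in END2, at 10.69, 10.88 and 10.81 in PYS2 and at 10.87, 10.63 and 11.05 in XEN. END2 replicate 3 was the highest array, the lines overlapped, and the differences were 0.17 for END2 minus PYS2 (95% interval -0.34 to 0.68), 0.11 for END2 minus XEN (-0.39 to 0.62) and -0.06 for PYS2 minus XEN (-0.56 to 0.45). Psme4 encodes the large single-chain activator PA200. It was at 11.51, 11.54 and 11.47 in END2, at 11.28, 11.33 and 11.27 in PYS2 and at 11.17, 11.15 and 11.11 in XEN. The lines did not overlap, but the steps were small: END2 was 1.29-fold higher than XEN (adjusted p = 0.0472), and the differences of 0.21 from END2 to PYS2 and 0.15 from PYS2 to XEN did not pass. The END2 against XEN call was lost without any 1 of 7 arrays, that is without END2 replicate 1 or 2, PYS2 replicate 1 or 2 or any XEN replicate, with differences of 0.35 to 0.38 and adjusted p of 0.0544 to 0.115. A second Psme4 probe reached detection on 2 END2 arrays and on no PYS2 or XEN array, and it passed as higher in END2 against PYS2 (adjusted p = 0.0398) and XEN (adjusted p = 0.0427), with no fold given since its END2 mean did not exceed the bound for those lines.

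The beta ring gene Psmb5 shared with Psme1 and Psme2 a level in PYS2 above both other lines. The promoter windows of these genes are shown because no other member passed the test in this direction against both lines. The windows run from 250 bases before to 50 bases after a transcription start of RefSeq (build GRCm38.p6) and are read along the strand of the gene. In Psme1 capitals mark the core of the interferon-stimulated response element (GAAA, any 2 bases, GAAA), found on the opposite strand with its first base at position 10 after the start. In Psmb5 they mark TGACNNNGC, the core of the antioxidant response element that Nrf1 and Nrf2 bind, whose first base is at position -47. The Psme2 window holds neither motif.
Psme1, chr14:55578244-55578543, plus strand: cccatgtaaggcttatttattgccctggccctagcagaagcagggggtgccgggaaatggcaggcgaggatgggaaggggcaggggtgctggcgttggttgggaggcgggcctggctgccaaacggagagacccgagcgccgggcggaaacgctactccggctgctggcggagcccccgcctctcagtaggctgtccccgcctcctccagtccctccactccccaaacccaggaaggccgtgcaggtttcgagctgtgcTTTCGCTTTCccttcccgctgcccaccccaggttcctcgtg
Psme2, chr14:55591052-55591351, minus strand: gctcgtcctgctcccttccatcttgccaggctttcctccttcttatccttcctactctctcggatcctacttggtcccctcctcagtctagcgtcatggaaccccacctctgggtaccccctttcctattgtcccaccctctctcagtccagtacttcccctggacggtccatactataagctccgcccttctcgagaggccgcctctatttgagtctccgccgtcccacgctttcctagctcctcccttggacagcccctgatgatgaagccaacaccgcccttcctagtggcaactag
Psmb5, chr14:54617946-54618245, minus strand: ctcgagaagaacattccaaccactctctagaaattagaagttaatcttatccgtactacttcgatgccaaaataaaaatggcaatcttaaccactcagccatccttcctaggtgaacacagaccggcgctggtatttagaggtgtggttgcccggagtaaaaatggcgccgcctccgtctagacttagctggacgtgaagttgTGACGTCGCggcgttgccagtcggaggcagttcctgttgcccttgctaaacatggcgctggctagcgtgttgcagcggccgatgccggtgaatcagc

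RefSeq gave a window for 35 of the 42 member genes, 39 windows in all, and for 32851 windows over the genome. Motifs were searched on both strands. The interferon-stimulated core was found in 10.3% of the member windows (Psmb3, Psmd4, Psmd9 and Psme1) and in 3.44% of all windows. TGACNNNGC was found in 15.4% (Psmb5, Psmb6, Psmc6, Psmd9, Psmd12 and Psme4) and in 12.4% of all. CCAAT was found in 38.5% of the member windows, of 15 genes, and in 37.4% of all. TTCNNNGAA, the core of a STAT site, was found in Psmd2 alone among the members (2.56%, against 8.30% of all windows). Of the genes with the interferon-stimulated core, Psme1 and Psmd9 had lower levels in END2 than PYS2, and Psmb3 and Psmd4 passed no test. Of those with TGACNNNGC, Psmb5, Psmc6, Psmd9 and Psmd12 had lower levels in END2 than PYS2. Psme4 was higher in END2 than in XEN, and Psmb6 passed no test. Genes lower in END2 than PYS2 made up 28.8% of all genes tested and 19.4% of the tested members. In END2 against XEN, Psmd9 and Psmd12 were lower in END2, Psme1 was higher, and Psmb5 and Psmc6 did not pass. The calls of Psmc6 and Psme4 were each lost without any 1 of 7 arrays, and the second probes of Psmd9 and Psmd12 passed no test. The motif matches are descriptions of letters and not of binding, and their link to the levels was not tested.

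Genes of the interferon response were examined beside the activators. Of 6 listed genes 5 had a named probe, and Ifit1, Ifit3 and Tap1 reached the filter in no line. Irf1, an interferon-induced transcription factor, was highest in END2 at 10.50 ± 0.39, then 9.08 ± 0.06 in PYS2 and 7.28 ± 0.24 in XEN (SD, n = 3), and all 3 comparisons passed. Of its 3 other tested probes, all had END2 above PYS2 and PYS2 above XEN, and 1 passed in END2 against PYS2. Its order differed from that of Psme1, in which PYS2 was highest. Isg15 reached detection on 2 END2 arrays only. The summed signal covered only the tested genes of the list, Irf1 and Isg15, and most of it came from Irf1. It was 993.5 to 1965.3 in END2, 449.6 to 672.8 in PYS2 and 119.5 to 369.1 in XEN. The part of the interferon response in the Psme1 and Psme2 differences was not tested. Of the inducible core subunits that are exchanged under interferon gamma, Psmb8 and Psmb9 were not well above background on any array. The third, Psmb10, had means of 10.10 ± 0.41, 9.33 ± 0.08 and 9.43 ± 0.24 in END2, PYS2 and XEN, 1.71-fold above PYS2 in END2 (adjusted p = 0.0104) and 1.59-fold above XEN (adjusted p = 0.0213). A second Psmb10 probe passed neither comparison (0.53, adjusted p = 0.114, and 0.59, adjusted p = 0.0811).

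**Figure D3:**
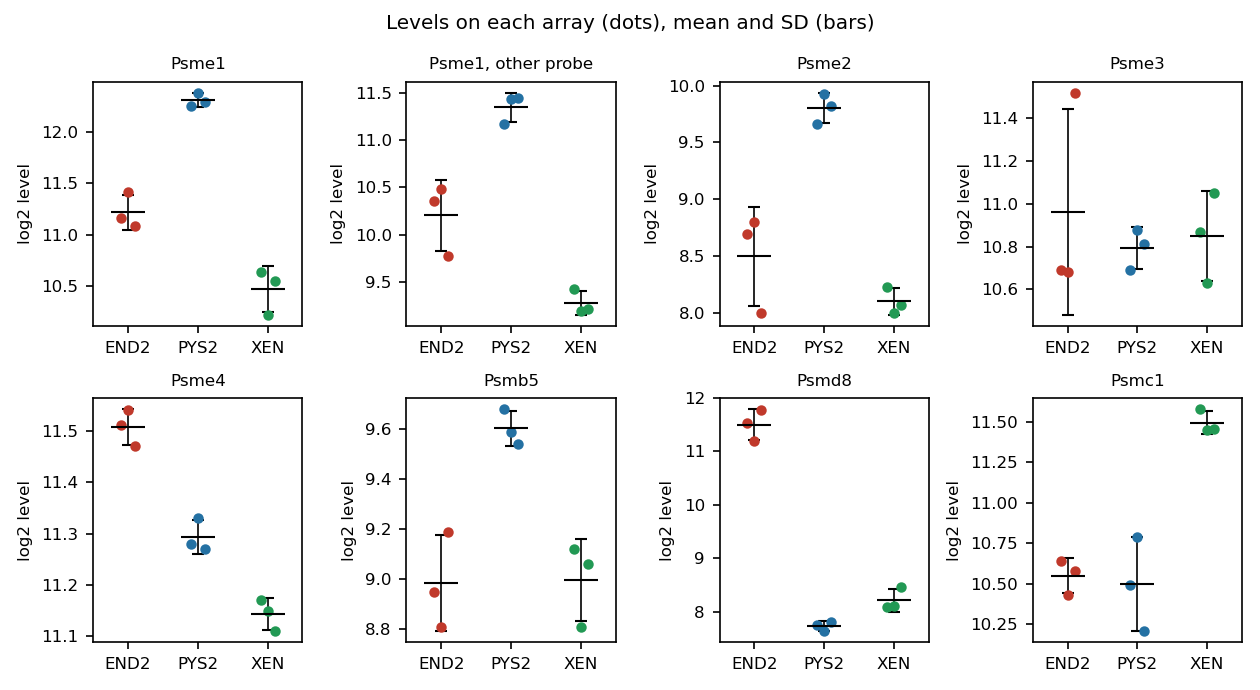
Log2 level (vertical axis, which does not start at 0 and differs between panels) of 7 proteasome genes, and of a second Psme1 probe, on each array of END2 (red), PYS2 (blue) and XEN (green); horizontal bars are means and whiskers SD, n = 3. Psme1, Psme2 and Psmb5 have the PYS2 dots at the top, Psmd8 the END2 dots and Psmc1 the XEN dots.

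The alpha ring, whose members make up the outer gate of the core, had 4 of 8 genes tested. Psma4 carried the largest difference. It was at 12.59, 12.68 and 12.22 in END2, at 11.70, 12.05 and 11.32 in PYS2 and at 12.55, 12.50 and 12.49 in XEN. The PYS2 arrays lay below all others, while END2 and XEN overlapped. Psma4 was 1.75-fold above PYS2 in END2 (SE 0.21 on the log2 scale, adjusted p = 0.00604) and 1.77-fold above PYS2 in XEN (adjusted p = 0.00829), and END2 and XEN differed by -0.02 (95% interval -0.47 to 0.43). Psma2 was 1.45-fold above PYS2 in END2 (adjusted p = 0.0116), with means of 13.92 ± 0.14, 13.38 ± 0.05 and 13.77 ± 0.10 in END2, PYS2 and XEN (SD, n = 3). Psma5 and Psma7 passed no test. Psma7 was at 12.66, 12.41 and 12.04 in END2, at 12.19, 12.49 and 12.41 in PYS2 and at 12.03, 12.00 and 11.96 in XEN. The XEN arrays were the lowest, yet the largest Psma7 difference, 0.37 for END2 minus XEN, had an interval of -0.03 to 0.78.

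In the beta ring 7 of 8 genes were tested and 5 of them, Psmb1, Psmb2, Psmb3, Psmb6 and Psmb7, passed in no comparison. Psmb5, which carries the chymotrypsin-like cutting site, was the exception with the largest difference. It was at 8.95, 8.81 and 9.19 in END2, at 9.68, 9.59 and 9.54 in PYS2 and at 9.12, 8.81 and 9.06 in XEN. The PYS2 arrays lay above all others, and END2 and XEN overlapped. Psmb5 was 1.54-fold above END2 in PYS2 (SE 0.17 on the log2 scale, adjusted p = 0.00764) and 1.53-fold above XEN (adjusted p = 0.0127). Without XEN replicate 2 the PYS2 against XEN difference was 0.52, with an adjusted p of 0.0541.

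The other catalytic genes, Psmb6 with the caspase-like site and Psmb7 with the trypsin-like site, passed no test. Psmb6 had means of 12.44 ± 0.33, 12.47 ± 0.28 and 12.69 ± 0.06 in END2, PYS2 and XEN (SD, n = 3). Psmb7 was at 13.10 ± 0.22, 12.61 ± 0.45 and 12.79 ± 0.06, and all 4 of its tested probes gave no call. Psmb4, a non-catalytic subunit, was 1.38-fold above PYS2 in XEN (adjusted p = 0.0377). That call was lost without any 1 of 7 arrays, namely END2 replicate 1 or any PYS2 or XEN replicate, with differences of -0.51 to -0.40 and adjusted p of 0.0528 to 0.118. Psmb1, also non-catalytic, was at 12.89, 12.84 and 12.54 in END2, at 12.66, 12.61 and 12.79 in PYS2 and at 12.51, 12.27 and 12.53 in XEN. The XEN arrays were the lowest and the END2 minus XEN difference was 0.32 (95% interval -0.04 to 0.68). Psmb2 and Psmb3 had line means within 0.16 and 0.23 of each other.

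Among the 6 ATPases of the base, the genes that passed a test did so in different directions. Psmc1 stood out in XEN. It was at 10.64, 10.43 and 10.58 in END2, at 10.49, 10.79 and 10.21 in PYS2 and at 11.58, 11.45 and 11.46 in XEN. The XEN arrays lay above all others, and END2 and PYS2 overlapped. Psmc1 was 1.93-fold above END2 in XEN (SE 0.18 on the log2 scale, adjusted p = 0.000805) and 2.00-fold above PYS2 (adjusted p = 0.00099). END2 and PYS2 differed by 0.05 (95% interval -0.34 to 0.44).

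Psmc3 was lower in PYS2 than in both other lines. It was at 11.80, 11.54 and 11.69 in END2, at 11.05, 10.99 and 10.95 in PYS2 and at 11.76, 11.44 and 11.68 in XEN. All PYS2 arrays lay below the others. It was 1.60-fold above PYS2 in END2 (SE 0.16 on the log2 scale, adjusted p = 0.00341) and 1.55-fold above PYS2 in XEN (adjusted p = 0.00832), while END2 minus XEN was 0.05 (95% interval -0.29 to 0.39). Psmc2 was 1.51-fold above PYS2 in END2 (adjusted p = 0.00848), a call that its second probe did not share (0.33, adjusted p = 0.183), while that probe passed for PYS2 minus XEN (-0.66, adjusted p = 0.0211). Psmc6 was 1.41-fold above END2 in PYS2 (adjusted p = 0.0446). It lay near the detection limit, on 1 of 3 arrays in XEN, and the call was lost under 8 of 11 other settings and without any 1 of 7 arrays (END2 replicate 1 or 2, PYS2 replicate 1 or 2, or any XEN replicate), with differences of -0.54 to -0.31 and adjusted p of 0.0567 to 0.173. Psmc4 and Psmc5 passed no test.

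Of the base subunits without ATPase activity, Psmd1 and Psmd2 are large scaffolds and Psmd4 is a ubiquitin receptor. None of the 3 passed a test in any comparison. Psmd2 was at 6.59, 6.44 and 6.75 in END2, at 6.19, 6.52 and 6.08 in PYS2 and at 6.15, 6.66 and 6.59 in XEN. The lines overlapped, and END2 minus PYS2 was 0.33 (95% interval -0.09 to 0.75). Psmd4 was at 13.12, 12.83 and 12.81 in END2, at 12.60, 12.56 and 12.36 in PYS2 and at 12.61, 12.52 and 12.77 in XEN. The END2 arrays lay above all others, with a difference of 0.41 to PYS2 just outside the threshold (adjusted p = 0.0518) and 0.28 to XEN (adjusted p = 0.168). Psmd1 had line means of 12.50, 12.59 and 12.70 in END2, PYS2 and XEN.

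The lid held the largest difference of all the proteasome genes. Psmd8 encodes a structural subunit, known in yeast as Rpn12, whose addition completes the lid. It was at 11.54, 11.19 and 11.77 in END2, at 7.75, 7.63 and 7.81 in PYS2 and at 8.08, 8.10 and 8.46 in XEN. Every END2 array lay far above every array of the other lines. Psmd8 was 13.7-fold above PYS2 in END2 (95% interval 3.36 to 4.18 on the log2 scale, adjusted p = 1.25e-08) and 9.75-fold above XEN (2.87 to 3.70, adjusted p = 5.11e-08). Both calls held under all alternatives tried. PYS2 and XEN differed by -0.49 (adjusted p = 0.0638). The difference rests on a single probe, since a second Psmd8 probe for the same transcript was not detected on any array.

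Psmd6, known in yeast as Rpn7, was a lid gene that was highest in XEN. It was at 6.28, 6.60 and 7.11 in END2, at 7.12, 7.14 and 6.86 in PYS2 and at 7.99, 7.87 and 7.94 in XEN. The XEN arrays lay above all others, and END2 and PYS2 overlapped. Psmd6 was 2.42-fold above END2 in XEN (SE 0.21 on the log2 scale, adjusted p = 0.000324) and 1.86-fold above PYS2 (adjusted p = 0.00559). The second probe gave both calls in the same direction: it was detected on all XEN arrays, on 1 PYS2 array and on no END2 array, so that XEN was at least 2.00-fold higher than END2. Such a bound sets the mean of the line with the higher level against, for each array of the other line, the higher of the lowest signal well above background and the signal of the probe itself.

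Psmd11, the gene of the lid subunit known in yeast as Rpn6, was read in opposite directions by its probes. By the chosen probe it was at 9.49, 9.39 and 9.09 in END2, at 8.32, 8.62 and 8.08 in PYS2 and at 8.29, 9.05 and 8.49 in XEN. The END2 arrays were the highest, 1.98-fold above PYS2 (SE 0.23 on the log2 scale, adjusted p = 0.00334) and 1.64-fold above XEN (adjusted p = 0.0205). The END2 against XEN call was lost without END2 replicate 1 or 2 or XEN replicate 1 or 3, with differences of 0.55 to 0.68 and adjusted p of 0.0569 to 0.0894. By the other tested probe Psmd11 was not well above background in END2, and was detected on all arrays of PYS2 and XEN. By that probe PYS2 was at least 1.46-fold higher than END2 (adjusted p = 0.000457) and XEN at least 1.87-fold higher (adjusted p = 7.54e-05). No direction is given for this gene.

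Psmd12 and Psmd7 also depended on the probe. Psmd12 (Rpn5 in yeast) was lower in END2 by its chosen probe, which was 1.5-fold higher in PYS2 (adjusted p = 0.0258) and 1.47-fold higher in XEN (adjusted p = 0.0316). Its other probe passed no test and gave differences of 0.55 (END2 minus PYS2) and 0.14 (END2 minus XEN). The first call was lost without END2 replicate 1 or 2 or PYS2 replicate 2 or 3 (differences of -0.58 to -0.44, adjusted p of 0.0631 to 0.105). The second was lost without END2 replicate 1 or 2 or XEN replicate 1 or 2 (-0.56 to -0.48, adjusted p of 0.0743 to 0.107). For Psmd7 (Rpn8 in yeast), both probes for its RefSeq transcript gave no call in any comparison, whereas a probe for the cDNA AK012463 read -1.26 for END2 minus PYS2 (adjusted p = 0.00032) and -0.94 for END2 minus XEN (adjusted p = 0.00264). Psmd14, the gene of the enzyme that removes ubiquitin chains, passed no test by either probe, with 10.08 ± 0.19, 10.01 ± 0.24 and 10.23 ± 0.12 in END2, PYS2 and XEN (SD, n = 3). Psmd13 passed no test either.

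**Figure D4:**
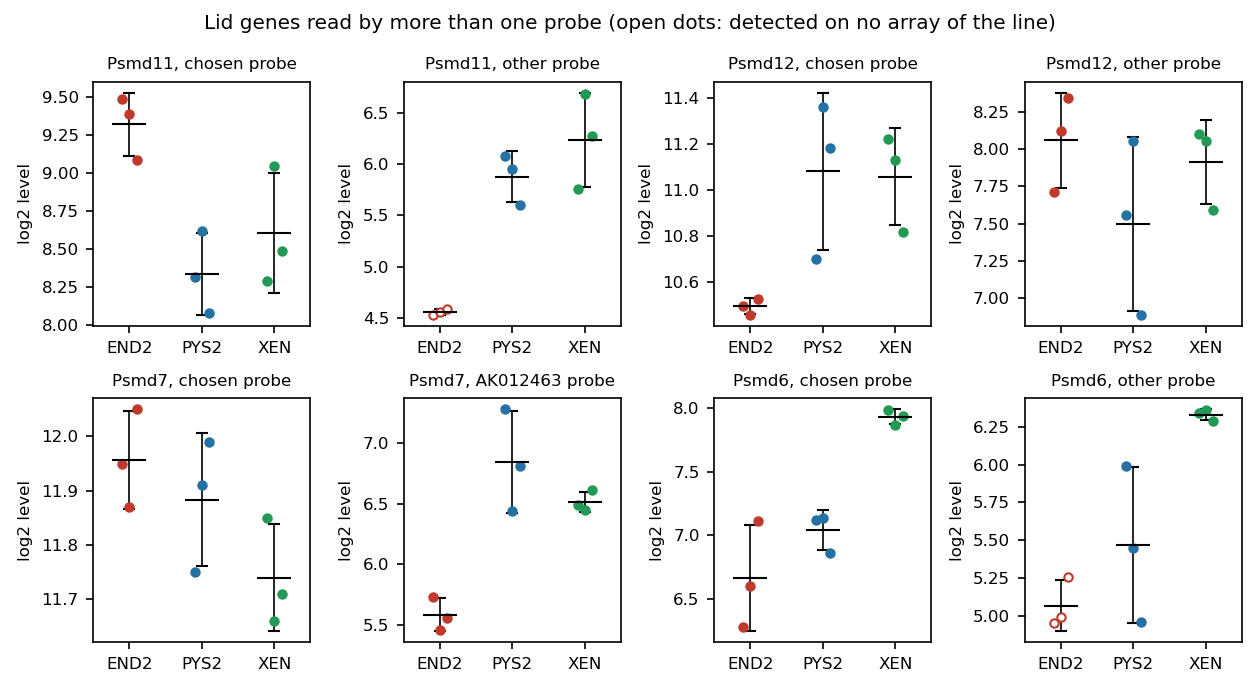
Log2 level (vertical axis, which does not start at 0 and differs between panels) of 4 lid genes by the chosen probe and by another probe, on each array of END2 (red), PYS2 (blue) and XEN (green); horizontal bars are means, whiskers SD, n = 3, and open dots mark a line in which the probe was detected on no array. The probes of Psmd11 run in opposite directions, those of Psmd12 and Psmd7 differ, and those of Psmd6 share the high XEN level.

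Across all members, 18 genes had several tested probes. In 11 of these every probe gave the same call in all comparisons. Among those 11, only Psmd6 and Psme1 had probes that passed a test, and in the others no probe passed. The calls differed between probes in Psmc2, Psmd7, Psmd9, Psmd10, Psmd11, Psmd12 and Psme4, and Psmd11 was the 1 gene with opposite calls. In 8 genes an undetected probe lay beside a tested one. Why probes of a gene differed was not tested.

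Psmd5, Psmd9 and Psmd10 encode chaperones that guide the assembly of the base and leave the finished particle. Psmd5 was at 8.19, 7.74 and 7.15 in END2, at 5.51, 6.27 and 6.34 in PYS2 and at 6.58, 6.46 and 5.88 in XEN. The END2 arrays lay above all others. Psmd5 was 3.14-fold above PYS2 in END2 (SE 0.30 on the log2 scale, adjusted p = 0.000752) and 2.61-fold above XEN (adjusted p = 0.00255). Both calls held under all alternatives, though the log2 differences went down to 0.76 and 0.67. They rest on a single probe, which was detected on 2 of 3 PYS2 arrays, since a second Psmd5 probe was not detected on any array. Psmd9 ran the other way. It was at 6.44, 6.64 and 6.52 in END2, at 7.28, 7.51 and 6.99 in PYS2 and at 7.26, 7.65 and 7.36 in XEN, with all END2 arrays below the others. It was 1.65-fold above END2 in PYS2 (SE 0.18 on the log2 scale, adjusted p = 0.00562) and 1.85-fold above END2 in XEN (adjusted p = 0.00162), though a second probe passed neither test, at -0.28 (END2 minus PYS2) and -0.34 (END2 minus XEN). Psmd10, the oncoprotein gankyrin, was 1.40-fold above END2 in PYS2 (adjusted p = 0.0199). Without PYS2 replicate 2 or 3 this fell outside the threshold, with differences of -0.47 to -0.41 and adjusted p of 0.0545 and 0.0624. The other tested Psmd10 probes did not pass it (-0.47, adjusted p = 0.195, and -0.31, adjusted p = 0.26), and the second of them passed in END2 against XEN (-0.58, adjusted p = 0.0453). PYS2 and XEN differed in none of the 3 chaperone genes by the test.

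**Figure D5:**
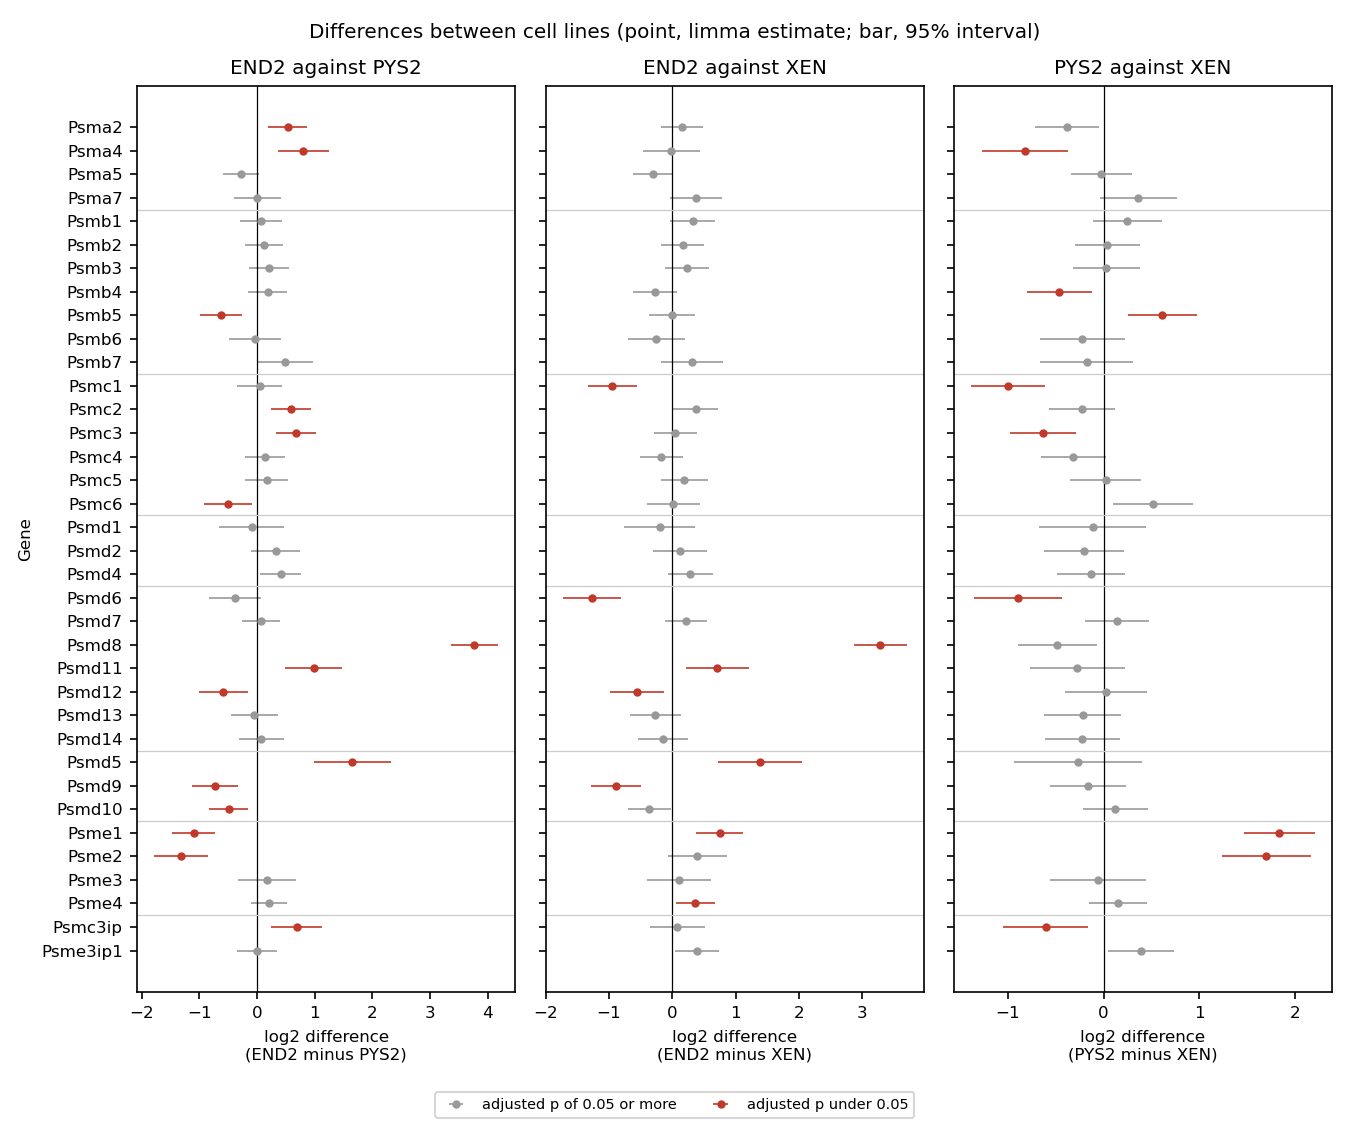
Log2 difference (horizontal axis) of each of the 36 tested proteasome genes (rows, ordered by part of the particle) in each pair of lines; points are limma estimates, bars 95% intervals, and red marks an adjusted p under 0.05. Psmd8 lies farthest from 0 in both END2 comparisons, and Psme1 and Psme2 lie farthest from 0 in PYS2 against XEN.

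The genes that the symbol rule took in without being subunits were tested alike. Psmc3ip, which encodes a partner of the recombinases of meiosis, was at 9.88, 9.56 and 10.18 in END2, at 8.92, 9.43 and 9.21 in PYS2 and at 9.92, 9.65 and 9.81 in XEN. PYS2 was the lowest line without overlap, 1.61-fold below END2 (adjusted p = 0.0132) and 1.52-fold below XEN (adjusted p = 0.0343). The first call was lost without PYS2 replicate 1 (0.55, adjusted p = 0.0545). The second was lost without PYS2 replicate 1 or 3 or any XEN replicate (-0.68 to -0.47, adjusted p of 0.0501 to 0.119). Psme3ip1, whose product binds the Psme3 ring, was at 9.95, 10.08 and 9.76 in END2, at 9.80, 10.06 and 9.92 in PYS2 and at 9.59, 9.58 and 9.44 in XEN. The XEN arrays were the lowest, and the differences of 0.39 to either line did not pass (adjusted p = 0.0576 and 0.0727).

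Genes that build, feed or control the proteasome were read from lists drawn up by their known roles. Of 9 genes for core assembly and proteasome regulation 5 were tested. Psmg1, a chaperone of the alpha ring, was lower in END2: 1.75-fold higher in PYS2 (adjusted p = 0.00301) and 2.02-fold higher in XEN (adjusted p = 0.000652). Its partner Psmg2, Psmg3, the maturation factor Pomp and the proteasome adaptor Ecpas passed no test. Of 10 receptors, shuttles and deubiquitinases 6 were tested. By the chosen probe, the shuttle gene Ubqln1 was 1.41-fold above XEN in END2 (adjusted p = 0.0155) and 1.5-fold above XEN in PYS2 (adjusted p = 0.00979). By both other probes END2 was above XEN too (0.66 and 0.69, adjusted p = 0.0178 and 0.0192), but PYS2 against XEN did not pass and END2 was above PYS2 (0.62 and 0.80, adjusted p = 0.0234 and 0.00844). Ubqln4 was 1.56-fold higher in PYS2 (adjusted p = 0.0241) and 1.5-fold higher in XEN (adjusted p = 0.0351) than in END2. Rad23b, another shuttle, was 1.74-fold above END2 in XEN (adjusted p = 0.00573), which its second probe did not pass (adjusted p = 0.0857). The deubiquitinase genes Usp14 and Uchl5 and the lid gene Sem1 passed no test, though 1 of 4 Uchl5 probes passed for END2 minus XEN (-0.68, adjusted p = 0.0142). Of the ubiquitin and E1 genes only Uba6 was tested. Its level was 2.46-fold above PYS2 in END2 (adjusted p = 0.0324) and 4.12-fold above PYS2 in XEN (adjusted p = 0.00464), with an SD of 1.24 among the END2 arrays.

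The segregase p97 pulls ubiquitin-tagged proteins out of complexes and membranes ahead of the proteasome. Its gene Vcp was 1.45-fold above XEN in END2 (adjusted p = 0.0351). Its cofactor Nploc4 was higher in END2 than in PYS2 (1.61-fold, adjusted p = 0.0126) and XEN (2.01-fold, adjusted p = 0.00126), while the partner of Nploc4, Ufd1, was highest in XEN, 1.59-fold above END2 (adjusted p = 0.00522) and 1.46-fold above PYS2 (adjusted p = 0.0223). Faf2 passed no test, and neither did the chosen probe of Faf1, whereas a second Faf1 probe passed for END2 minus PYS2 (-0.78, adjusted p = 0.0124) and for END2 minus XEN (-0.63, adjusted p = 0.0343). Of 8 genes that control proteasome genes, 6 were tested. Nfe2l1, whose product Nrf1 drives proteasome genes when the proteasome is impaired, had means of 10.89 ± 0.19, 10.50 ± 0.10 and 10.64 ± 0.08 in END2, PYS2 and XEN (SD, n = 3) and passed no test. Its relatives Nfe2l2 and Nfe2l3 were higher in END2, Nfe2l2 by 2.74-fold against PYS2 (adjusted p = 0.0039) and 2.82-fold against XEN (adjusted p = 0.00328), and Nfe2l3 by 2.75-fold against PYS2 (adjusted p = 0.00436) and at least 2.87-fold against XEN (adjusted p = 0.000714). Both were detected on 3 END2 arrays and on 1 PYS2 array, and in XEN on 1 array for Nfe2l2 and on none for Nfe2l3. Maff, which was detected on no XEN array, was at least 1.37-fold above XEN in END2 (adjusted p = 0.0259), and Mafg passed no test. Of 4 tested Keap1 probes the chosen one passed no test, and 2 passed for PYS2 minus XEN (-0.56 and -0.65, adjusted p = 0.0231 and 0.0275).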

How the data were processed

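Per the labels, total RNA of 9 samples was extracted, biotin-labelled and hybridised to Illumina mouse whole-genome arrays. The scanner intensity deposited for each probe is a mean bead signal on a linear scale, not normalized between arrays, and no source used here says whether background was subtracted first. The deposited detection score is a fraction that rises with the signal, and 1 minus the score was used as the detection p-value. The authors' second table holds log2 values normalized with lumi, whose version no source used here names, and served as an alternative. The scanner table also holds 24 columns of 3 arrays that match no sample, which were not used.

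Intensities were background-corrected and quantile normalized with neqc of limma 3.58.1 in R 4.3.3 (offset 16). Probes were filtered as described in the report, all 9 arrays were fitted in 1 limma model, and p-values were adjusted by the Benjamini-Hochberg method over 16299 probes. The limma fit was tested on simulated log2 levels with independent noise. Background correction, normalization between arrays and the detection filter were not part of that simulation. Probe genes came from the annotation of the array platform, in which 34885 of 45281 probes have 1 symbol, and all 75 member probes matched RefSeq by gene number.

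Values on every array were given for the 6 called members with the largest difference in each comparison, the member of each group with the largest difference, all Psme genes and the members that are not subunits. Members and lists were chosen with earlier results of these data known. Alternatives were the authors' values, background correction, normalization between arrays, the filter, the replicate number as a block, array weights, the estimate of spread, the samples in the fit, the probe of a gene, the threshold and leaving out each array. Levels of different probes were not compared with each other.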

Additional observations from a re-analysis of the deposited data

How the results depend on the processing

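Directions of the called proteasome genes held under all alternatives except for Psmd11, which turned to -0.17 in END2 against PYS2 (adjusted p = 0.534) and -0.48 in END2 against XEN (adjusted p = 0.0757) when the probes of a gene were averaged. Of 33 called differences 10 held under all alternatives: those of Psmd8 and Psmd5 in both END2 comparisons, of Psme1 and Psme2 in both comparisons of PYS2, of Psmd6 in END2 against XEN and of Psmc1 in PYS2 against XEN. Psmd8, Psmd5, Psme2 and Psmc1 each had a single tested probe, so averaging the probes of a gene left their levels unchanged and could not challenge their calls. Without normalization between arrays, where the median of all genes shifted to 0.16 (END2 minus PYS2) and 0.13 (END2 minus XEN), the counts of higher and lower genes were 3 and 2 in END2 against PYS2, 2 and 1 in END2 against XEN, and 2 and 1 in PYS2 against XEN, and the median differences were 0.20 in END2 against PYS2 and -0.23 in PYS2 against XEN. With the authors' values, END2 against XEN had 8 higher and 7 lower. With array weights it had 12 higher, and PYS2 against XEN had 5 higher. At an adjusted p under 0.01, the lower count in END2 against PYS2 was 4 and the higher count in END2 against XEN was 3. With the mean of a gene's probes the median in END2 against XEN was 0.019. Counting only genes of which every tested probe passed, an alternative chosen after seeing the data, the lower counts were 4 in END2 against PYS2 and 2 in END2 against XEN. The cause of these shifts was not tested. Leaving out 1 array at a time gave 7 to 10 higher and 4 to 8 lower genes in END2 against PYS2 (4 lower without PYS2 replicate 2), 3 to 9 and 3 to 4 in END2 against XEN (9 higher without END2 replicate 3, and 3 without END2 replicate 1 or 2 or XEN replicate 1 or 3), and 2 to 5 and 4 to 8 in PYS2 against XEN (5 higher without END2 replicate 3). The median differences ran from 0.087 to 0.14, from 0.071 to 0.22 (highest without END2 replicate 2) and from -0.21 (without PYS2 replicate 2) to -0.055 (without PYS2 replicate 3). The share of higher among the called members was 53.3% in END2 against PYS2, where it was 47.8% among all called genes. It was 64.3% with cyclic loess (51.7% among all) and with the mean of a gene's probes (47.8%). In END2 against XEN it was 55.6% (50.7% among all). There it was 66.7% without normalization (2 higher and 1 lower, 60.8% among all) and 70.6% with array weights (12 higher and 5 lower, 49.4% among all). In PYS2 against XEN it was 33.3% (53.5% among all) and 66.7% without normalization (49.6%). Correlations of deviations between arrays of the same replicate number had mixed signs, from -0.28 to 0.31. Those of replicate 2 were all positive (0.13 to 0.24), and whether some arrays shared a run was not tested. With the replicate block the higher and lower counts were 8 and 6, 4 and 4, and 3 and 6 in the same order, and 30 of 33 calls were kept, those lost being Psmc6 (END2 against PYS2), Psme4 (END2 against XEN) and Psmb4 (PYS2 against XEN). Near the detection limit, a probe's level and its differences are limited by background.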

Other observations

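The genes that were higher in PYS2 than in both other lines, Psmb5, Psme1 and Psme2, all lie on chromosome 14. In the RefSeq order of genes (GRCm38.p6) 1 protein-coding gene, Emc9, lies between Psme1 and Psme2, and 13 tested genes other than these members, Emc9 among them, lie in the stretch from Psmb5 to Psme2. The stretch was chosen after the values of the proteasome genes had been seen, and no test was made on it. Of these 13 genes, 7 (53.8%) were higher in PYS2 than in END2 and 0 were lower, where 28.8% of all genes tested were higher in PYS2. In PYS2 against XEN 9 (69.2%) were higher in PYS2 and 1, Efs, was lower, where 21.2% of all genes tested were higher. The median differences of the 13 genes were 0.47 for PYS2 minus END2 and 0.73 for PYS2 minus XEN. Bcl2l2, which encodes the survival factor Bcl-w, had means of 8.46, 9.14 and 7.84 in END2, PYS2 and XEN, and Pabpn1, which encodes a nuclear poly(A)-binding protein, of 11.90, 12.51 and 11.86. Both had their highest level in PYS2, which passed against END2 (adjusted p = 0.00666 and 0.0246) and against XEN (adjusted p = 0.000142 and 0.026). Thtpa, Ap1g2, Slc22a17 and 1700123O20Rik also passed as higher in PYS2 in both comparisons. Whether the genes of this stretch share a cause with Psmb5, Psme1 and Psme2 was not tested.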
